A study of Mus musculus with 12 samples.

Results

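The cytosolic ribosome is built from ribosomal RNA and ribosomal proteins, and the genes of these proteins were followed here through the maturation of CD4 single positive (SP) thymocytes. Members were the genes with a symbol of the form Rpl or Rps followed by a number, together with Rplp0, Rplp1, Rplp2 and Rpsa, that had a probe set annotated to a single gene. Rps6k kinases and pseudogene symbols were left out. This gave 50 genes, represented by 106 probe sets, of 18193 genes and 45037 probe sets in all. Each gene was read through its probe set of highest mean over the 12 arrays. By name, 22 encode large subunit proteins and 21 small subunit proteins. The other 7 carry the name of a paralog or of a related protein (Rpl3l, Rpl7l1, Rpl22l1, Rpl39l, Rps4l, Rps27l and Rps19bp1), of which Rps19bp1 is a protein that binds RPS19 rather than a ribosomal protein and Rpl7l1 is a protein of the nucleolus. Rplp1 and many other ribosomal protein genes had no probe set of their own in this annotation, so the 50 genes are not the whole ribosome.

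All cells came from pooled thymi of C57BL/6 mice aged 6 to 8 weeks, with no treatment, and were CD4+ and CD8- as well as CD25- and NK1.1-. SP1 was Qa-2-, 6C10+ and CD69+. SP2 was Qa-2-, 6C10- and CD69+. SP3 was negative for Qa-2, 6C10 and CD69, and SP4 was Qa-2+ but 6C10- and CD69-. Each subset had 3 arrays of separate cell preparations, numbered 1 to 3. By the study's methods, mature T cells returning to the thymus had not been removed from SP4. Each preparation was pooled from many mice, so that the arrays do not show the spread between animals.

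Ribosomal protein mRNAs are among the most abundant of a cell, and the proteins are made in equal numbers for each ribosome, with the acidic stalk proteins as the exception. Many of these mRNAs start with a C followed by a stretch of pyrimidines, the 5' terminal oligopyrimidine (TOP) tract, through which mTOR signalling and the protein LARP1 control their translation. Levels of the mRNA therefore do not by themselves give the rate of protein synthesis. In the thymus, Rpl22 has a known role in the development of alpha beta T cells, and in several cell types Rpl5 and Rpl11 bind Mdm2 when ribosome assembly is disturbed, which stabilises p53.

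The DNA at the start sites of several members is shown because it holds the letters from which the TOP tract is transcribed. RefSeq windows of 300 bases on GRCm38.p6 (250 before the start and 50 after it) were at hand for 44 of the 50 genes. Each line below gives the 30 bases before the start and the 15 from the start on, on the coding strand, and capitals mark the longest unbroken run of C and T in the line.
Rplp2: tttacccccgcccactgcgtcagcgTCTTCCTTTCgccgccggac
Rps6: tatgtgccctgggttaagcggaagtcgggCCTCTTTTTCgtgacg
Rpl38: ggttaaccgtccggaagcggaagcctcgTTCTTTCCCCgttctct
Rps27: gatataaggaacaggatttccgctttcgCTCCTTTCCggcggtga
Rpl13a: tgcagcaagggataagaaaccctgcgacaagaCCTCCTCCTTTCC
Rpl22l1: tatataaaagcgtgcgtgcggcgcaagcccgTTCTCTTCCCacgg
Rplp0: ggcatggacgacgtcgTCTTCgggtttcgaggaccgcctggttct
Rpsa: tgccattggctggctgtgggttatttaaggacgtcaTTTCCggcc
They lie at chr7:141447621-141447665 (Rplp2, plus strand), chr4:86857353-86857397 (Rps6, minus strand), chr11:114668550-114668594 (Rpl38, plus strand), chr3:90213634-90213678 (Rps27, minus strand), chr7:45128731-45128775 (Rpl13a, minus strand), chr3:28805478-28805522 (Rpl22l1, plus strand), chr5:115559437-115559481 (Rplp0, plus strand) and chr9:120127736-120127780 (Rpsa, plus strand). Within the printed line the run has 10 bases in Rplp2, Rps6, Rpl38 and Rpl22l1, 13 in Rpl13a, 9 in Rps27, and 5 in Rplp0 and Rpsa. The run of Rpl13a reaches the end of its line and may go on. In Rplp0 a run of at least 7 lies within the 20 bases from the start on, of which only a part is printed. In Rplp2, Rps6, Rpl38 and Rps27 the marked run covers the annotated start base, and in Rpl13a, Rpl22l1, Rplp0 and Rpsa it does not. Lines of the same kind were read for other members but are not printed. There the longest run missed the start base in Rpl11, Rpl39, Rpl39l, Rpl7l1, Rps25 and Rps3. It covered the start base in Rps19bp1, with only 3 bases. The printed lines are thus richer in runs over the start than those left out.

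The windows were searched for 29 settings in all, none of which was fixed in advance. These were pyrimidine runs of at least 6, 7, 8, 9 or 10 bases in 3 windows around the start, and 7 motifs anywhere in the 300 bases, on 1 strand and on both. The motifs were the ETS core CGGAAG with its longer form CCGGAAG, the TATA motif TATAAA, the GC box GGGCGG, and 3 pyrimidine motifs, of which the first was CTCTTTC, the next CTTTCC and the last CTTTC, contained in the other two. The 3 described next were picked after the counts of all had been seen, and no test was made. A run of 8 or more within 20 bases of the start was held by 20 of 44 members (45.5%) against 18.3% of 17491 protein-coding genes. CGGAAG, the core of the site of ETS family factors, stood on either strand in 31 of 44 (70.5%) against 23.5%, and this count overlaps with that of its longer form. The TATA motif TATAAA was held on either strand by 6 of 44 (13.6%) against 14.8%. Over the whole scan the members' share was above that of protein-coding genes in 27 of 29 settings, at 0.921 to 4.72 times the share of protein-coding genes. Overlapping runs, windows and motifs mean that the settings are not separate observations, and 7 members had more than 1 window.

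The arrays put most members at the top of the scale. In total 192 probe sets had a mean intensity over 5000, and 34 of them were the representatives of members. The brightest were Rps29 and Rplp2, with 11569 and 10883 in the mean of the 12 arrays. Levels of different probe sets cannot be set against each other, and the highest value on any array lay between 12193 and 13754, so that a bright member has little room above it. At the other end, 5 members (Rps16, Rpl3l, Rpl39l, Rps4l and Rpl39) stayed under 64 on every array. For Rps16 the values were 3.46 to 5.90 although its protein is part of every ribosome, so the level of this mRNA cannot be read from the probe set. An offset of 16 was added before log2, which compresses the differences of these 5. Some other subunit genes had representatives far under 5000. Their means were 143 (Rpl14), 232 (Rps27), 298 (Rpl12), 503 (Rpl37), 537 (Rps6), 771 (Rps25) and 1165 (Rpl27a). How well these probe sets report the level of their mRNAs was not tested.

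No ribosomal protein gene was called different between any of the subsets. By limma on log2(intensity + 16) over all 12 arrays, with Benjamini-Hochberg adjustment over all probe sets, 0 of 50 members passed an adjusted p of 0.05 in each of the 6 comparisons. At an unadjusted p under 0.05 the count was 1 in SP2 against SP1 (Rps4l) and 1 in SP4 against SP1 (Rpl12), and 0 in the other 4 comparisons. Over all probe sets, 0% were called in SP2 against SP1, 0% in SP3 against SP2, 0.16% in SP4 against SP3, 0.0111% in SP3 against SP1, 0.557% in SP4 against SP2 and 1.08% in SP4 against SP1. A share of 0 of 50 is near this background in every comparison.

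Same-numbered arrays of different subsets deviated together, and the fit was therefore repeated with that number as a block. With the replicate block, 0 of 50 members passed in all 6 comparisons as well, while the share of all probe sets called rose to 0.00888% in SP2 against SP1, 0.22% in SP3 against SP2, 1.16% in SP4 against SP3, 0.329% in SP3 against SP1, 2.65% in SP4 against SP2 and 5.16% in SP4 against SP1. The lowest adjusted p of a member with the block was 0.182, for Rpl12 in SP4 against SP1.

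The size of a change in intensity that these arrays leave room for can be read from the 95% intervals of the differences. In SP4 against SP1, the interval lay within 1.5-fold in both directions for 34 of the 45 members that reached 64 on at least 1 array, and within 2-fold for 40 of 45. With the block these counts were 38 and 43. In the other 5 comparisons, 31 to 36 of 45 lay within 1.5-fold without the block. None of the 300 differences exceeded 1.5-fold. The intervals are those of single genes, with no adjustment for their number. They bound the change in intensity and not that in mRNA, since a bright member has little room above it on the scale.

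**Figure D1:**
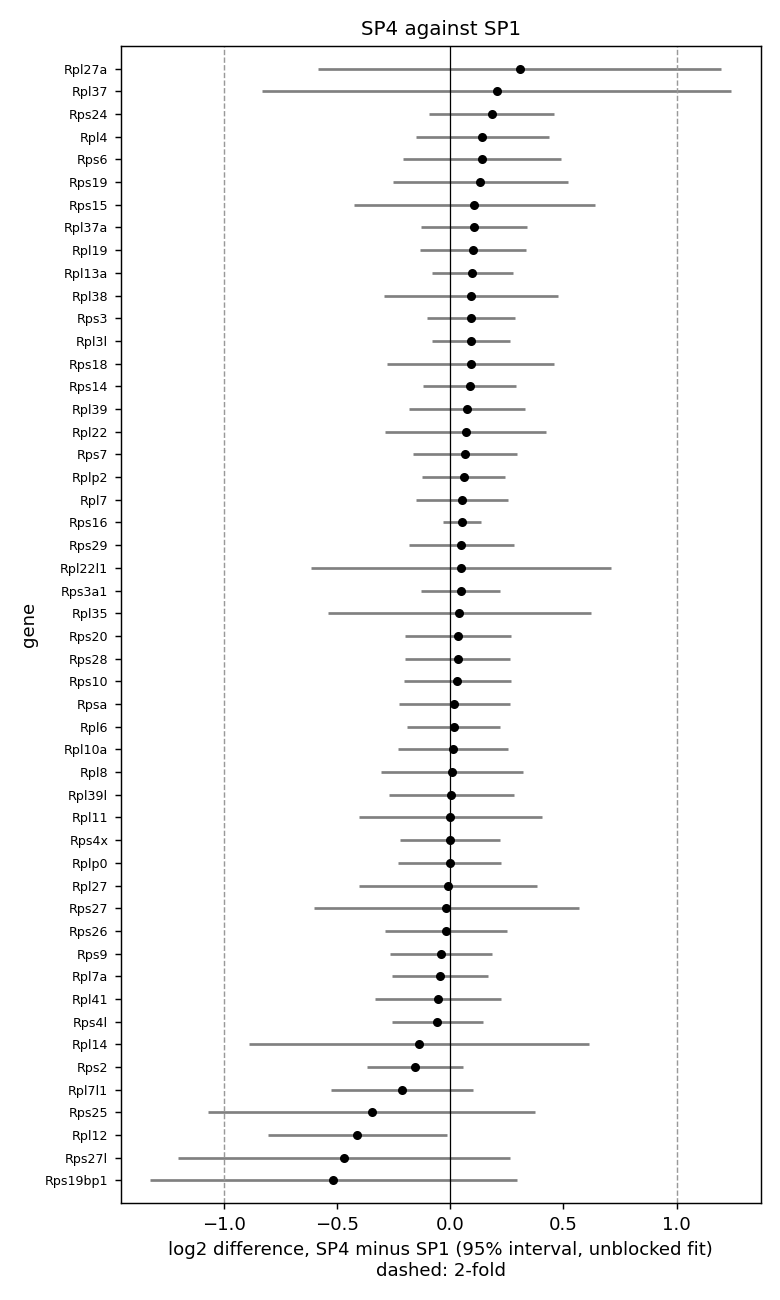
Log2 difference in log2(intensity + 16) between SP4 and SP1 for each of the 50 genes (points) with its 95% interval from the unblocked fit (lines); dashed lines mark 2-fold. The points run from -0.52 for Rps19bp1 to 0.31 for Rpl27a, and Rpl12 is the gene whose interval does not reach 0.

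The median member moved little. In SP4 against SP1 the median log2 difference of the 50 genes was 0.04, with 34 above 0 and 16 below, beside a median of -0.01 over all probe sets. It was 0.05 for the large subunit, 0.05 for the small subunit and -0.06 for the 7 paralogs and related genes. Quantile normalization turned the median over the 50 genes to -0.01, so that its sign changed with the scaling. From SP1 to SP2 the median was -0.07 with 40 of 50 below 0, and from SP2 to SP3 it was 0.06 with 42 of 50 above 0. From SP3 to SP4 it was 0.01 with 29 of 50 above 0.

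The dip at SP2 lay on a single array. On SP2 replicate 2 the median deviation of a member from its own mean over the 12 arrays was -0.22 (log2), against -0.06 to 0.10 on the other arrays. This array held the lowest value of the 12 for 39 of 50 members, against 11% of all probe sets and 33.6% of the 1557 other probe sets with a mean over 1000. Those 1557 had a median deviation of -0.05 there, with quartiles of -0.53 and 0.29, so bright probe sets spread out both ways on this array. Without it, the median of the members was 0.02 in SP2 against SP1 (39 of 50 above 0), -0.03 in SP3 against SP2 (15 of 50 above 0) and -0.01 in SP4 against SP2, where it was 0.09 with the array. The direction of the SP2 comparisons therefore rests on SP2 replicate 2.

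**Figure D2:**
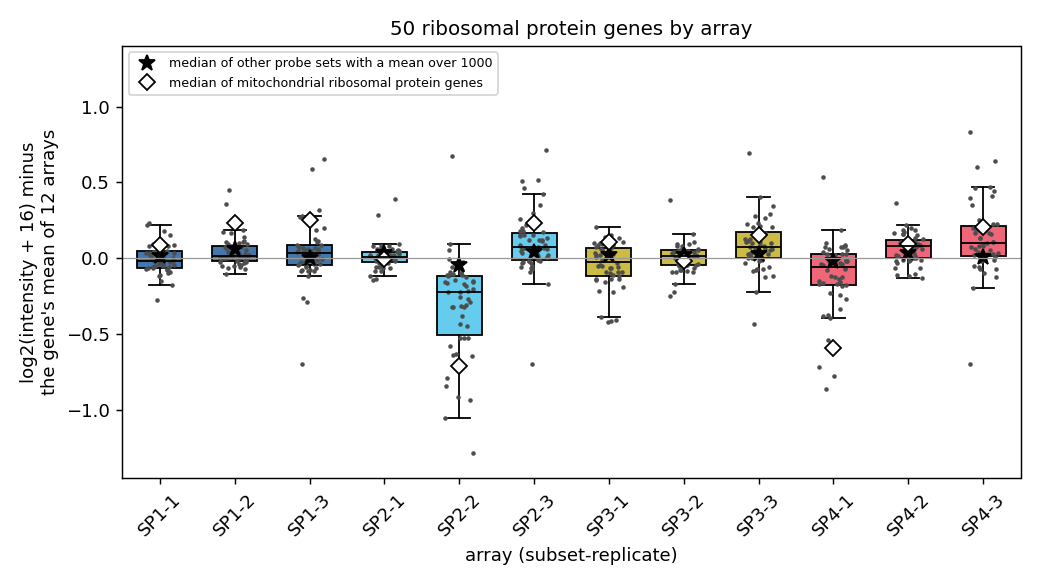
Deviation of each of the 50 genes from its own mean over the 12 arrays, in log2(intensity + 16), by array (points; boxes give median and quartiles, whiskers the furthest points within 1.5 box lengths; colours mark the subsets). Stars are medians of 1557 other bright probe sets and diamonds medians of 76 mitochondrial ribosomal protein genes. SP2 replicate 2 has the lowest box, with a median of -0.22, and the diamonds are lowest there and on SP4 replicate 1.

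The labelled cells were checked against marker lists. Cd4 lay between 423 and 1027 and Cd3e between 1019 and 1323 on all arrays. The 7 measured markers of double positive thymocytes summed to 1059 to 7251 in SP1 and 658 to 2449 in SP2. In SP3 the sums were 2778 to 13450 and in SP4 1224 to 3536. SP2 replicate 2 had the lowest sum, and every SP3 array lay above every SP2 array. All 7 were higher in SP3 than in SP2, with a median log2 difference of 2.44. Of these, 0 passed without the block and 2 with it, beside 0% and 0.22% of all probe sets. The 3 measured erythroid markers stayed near background, with sums of 26 to 36.6. The 4 B cell markers summed to 668 on SP2 replicate 2 and up to 3540 in SP1, mostly through Ighm (572 to 3209). The 6 myeloid and dendritic markers summed to 196 to 622 in SP1 and 306 to 774 in SP4, with Lyz2 at up to 395. The 3 regulatory T cell markers summed to 1222 to 1312 in SP1 and 1490 to 1909 in SP2. In SP3 their sums were 721 to 1129 and in SP4 1088 to 1581. These sums came mostly through Ikzf2 (646 to 1829), and Foxp3 gave at most 136. The 4 markers measured for NKT and other innate-like cells (Zbtb16, Il18r1, Il4 and Tbx21) summed to 71.4 to 159.9 in SP1 and to 834 to 1726 in SP4, although NK1.1+ cells had been gated out. The part of these markers in the values of the ribosomal protein genes was not tested, and in bulk samples fewer cells of a type and less RNA per cell cannot be told apart.

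Among the members with a known role beyond the ribosome, none passed the test. Rpl22 had intensities of 6596, 7092 and 7242 in SP1, 6616, 5388 and 8414 in SP2, 6164, 7291 and 8116 in SP3, and 6446, 7560 and 8002 in SP4. The 4 groups overlapped, and the difference between SP4 and SP1 was 0.07 ± 0.16 (log2, SE). Its paralog Rpl22l1, which can take the place of Rpl22 in the ribosome and whose mRNA rises when Rpl22 is lost, read 2674, 3366 and 3909 in SP1 and 2677, 3246 and 4465 in SP4. These values almost coincide, and the log2 difference was 0.05 ± 0.30 (SE).

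The Mdm2-binding Rpl11 had a mean of 6103 ± 278 (SD, n = 3) in SP1 and 6140 ± 801 in SP4, with the low value of 3803 on SP2 replicate 2. Rps6, the substrate of the S6 kinases, read 565, 605 and 442 in SP1, 529, 496 and 500 in SP2, 546, 541 and 456 in SP3, and 568 to 602 in SP4. The SP4 arrays lay above all SP3 and SP2 arrays but overlapped SP1, and the log2 difference from SP3 was 0.19 ± 0.16 (SE). The stalk proteins Rplp0 and Rplp2, which bind the elongation factors, differed between SP4 and SP1 by -0.0026 ± 0.10 and 0.06 ± 0.08 (log2, SE).

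Rpsa, also known as a laminin receptor, went from 7852 ± 397 to 7967 ± 747 (SD, n = 3). Rps3, which also has a part in DNA repair, went from 7238 ± 274 to 7718 ± 327, and Rps19, a gene mutated in Diamond-Blackfan anaemia, from 5568 ± 152 to 6143 ± 815. Rpl38, known for the translation of Hox mRNAs, stood at 7731 ± 560 in SP1 and 8250 ± 721 in SP4. Rps14 stood at 8476 ± 197 and 9008 ± 517. The 95% interval of each of these differences included 0.

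Rpl13a, which can leave the ribosome and silence the translation of inflammatory mRNAs, varied least among these genes. It read 8734, 8528 and 8234 in SP1, 8626, 8061 and 8596 in SP2, 9002, 8997 and 8724 in SP3 and 9189, 9162 and 8899 in SP4. All SP4 arrays were above all SP1 arrays, and the log2 difference was 0.10 ± 0.08 (SE; limma adjusted p = 0.971).

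Groups that did not overlap were near the share over all probe sets in SP4 against SP1. All SP4 arrays lay above all SP1 arrays for 2 members (Rpl13a and Rps24), or 4%, against 6.29% of all probe sets. They lay below for 4 (Rpl12, Rpl7l1, Rps2 and Rps27l), or 8%, against 6.19%. In SP4 against SP2, 10% of members lay above and 2% below, against 4.41% and 6.80% of all probe sets. In SP3 against SP2 it was 8% and 0%, against 2.91% and 3.52%. In the other comparisons 0% to 4% lay above, against 3.89% to 4.67%, and 0% to 2% below, against 2.57% to 4.61%.

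The largest negative difference between SP4 and SP1 was that of Rps19bp1, which read 252, 253 and 356 in SP1 and 114, 204 and 306 in SP4. The groups overlapped, at -0.52 ± 0.37 (log2, SE), but SP4 was lower in each of the 3 same-numbered pairs. With the replicate block the SE was 0.23 and the 95% interval -1.02 to -0.0087, with a limma adjusted p of 0.288. Without SP4 replicate 1 the difference was -0.17. Rps27l, a paralog of Rps27 that p53 induces, read 1548, 1814 and 1576 in SP1 and 767, 1416 and 1513 in SP4. All SP4 arrays were lower, by -0.47 ± 0.34, but without SP4 replicate 1 the difference was -0.16. Rps27 itself differed by -0.02 ± 0.27.

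Rpl12, a protein at the base of the ribosomal stalk, had the lowest p of the members in SP4 against SP1. Its probe set had a mean of only 298, so these values may not give the level of its mRNA. It read 349, 382 and 315 in SP1, 363, 241 and 285 in SP2, 281, 307 and 280 in SP3, and 223, 298 and 256 in SP4. All SP4 arrays were below all SP1 arrays, and the log2 difference of -0.41 ± 0.18 (SE) had a limma adjusted p of 0.598. Without SP4 replicate 1 it was -0.32.

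Rps25, needed for initiation at some viral internal ribosome entry sites, read 705, 822 and 1127 in SP1 and 446, 676 and 1033 in SP4, a log2 difference of -0.35 ± 0.33 that became -0.05 without SP4 replicate 1. It was lower in SP4 in 3 of 3 pairs, and with the replicate block the SE was 0.18 and the 95% interval -0.74 to 0.04. Rpl7l1 read 352, 373 and 398 in SP1 and 308, 322 and 331 in SP4. The 2 groups did not overlap, at -0.21 ± 0.14.

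On the positive side, Rpl27a read 1131, 1063 and 672 in SP1 and 1606, 1422 and 674 in SP4, a log2 difference of 0.31 ± 0.41 (SE). Replicates 1 and 2 were higher in SP4 while replicate 3 was nearly the same. Rpl37 differed by 0.21 ± 0.47, Rps24 by 0.18 ± 0.13, Rpl4 by 0.14 ± 0.13 and Rps6 by 0.14 ± 0.16. Leaving out 1 array at a time gave 0.07 (without SP4 replicate 1) to 0.69 (without SP4 replicate 3) for Rpl27a, which was 0.08 without SP1 replicate 3 and 0.16 without SP4 replicate 2. Without SP1 replicate 3, Rpl4 stood at 0.03 and Rps6 at 0.01. Rpl4 ranged up to 0.23 (without SP4 replicate 3) and Rps6 up to 0.23 (without SP1 replicate 2). The direction of Rpl37 rested on SP4 replicate 3, without which the difference was -0.12.

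Between neighbouring subsets no member passed the test either. In SP2 against SP1 they were Rps27l at -0.55 ± 0.34, Rps19bp1 at -0.52 ± 0.37 and Rpl14 at -0.36 ± 0.34 on the low side, and Rpl27a at 0.36 ± 0.41, Rpl4 at 0.05 ± 0.13 and Rps24 at 0.05 ± 0.13 on the high side (log2, SE). Without SP2 replicate 2 the differences of Rps27l and Rps19bp1 were -0.15 each and that of Rpl14 was 0.0032. In SP3 against SP2, Rps27l stood at 0.35 ± 0.34, Rpl35 at 0.27 ± 0.27 and Rps15 at 0.26 ± 0.24, and Rpl7l1 at -0.11 ± 0.14, Rpl27a at -0.07 ± 0.41 and Rps25 at -0.04 ± 0.33. Without that array Rps27l, Rpl35 and Rps15 stood at -0.05, -0.03 and -0.06. In SP4 against SP3, Rps27l, Rps19bp1 and Rpl12 were lowest at -0.27, -0.19 and -0.16, and without SP4 replicate 1 they stood at 0.03, 0.15 and -0.06. Rps6, Rpl37 and Rpl38 were highest at 0.19, 0.17 and 0.16, and Rpl37 stood at 0.45 without that array.

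**Figure D3:**
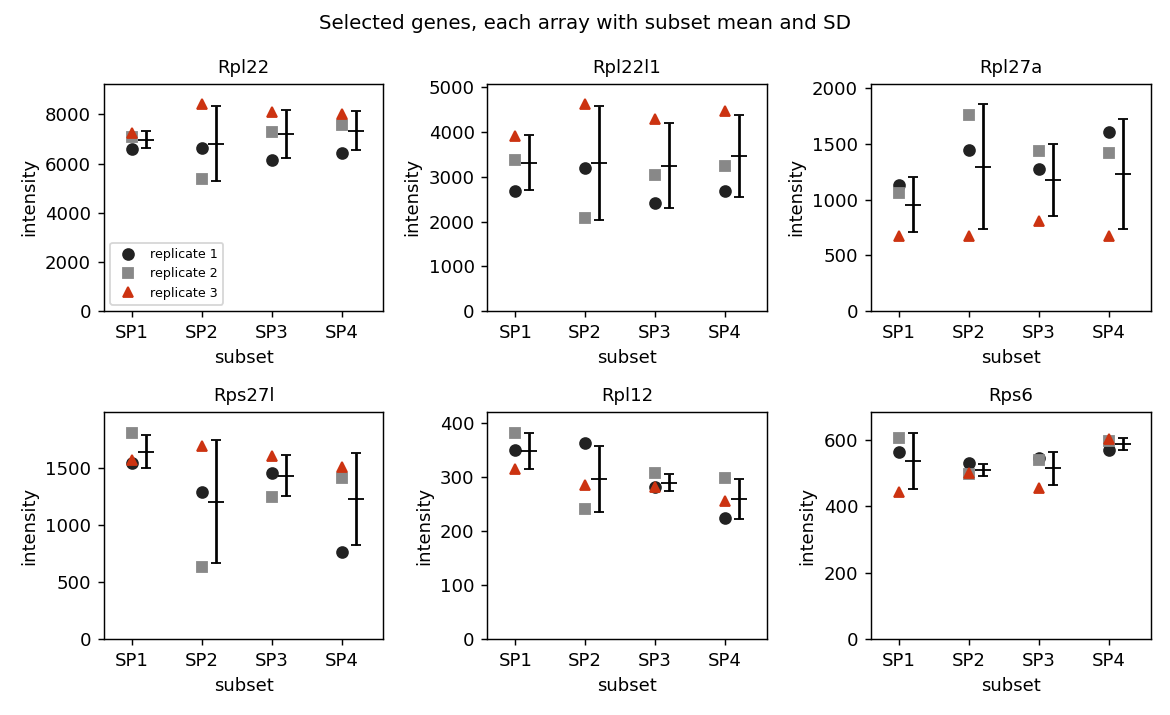
Intensity of 6 genes on each array by subset (symbols mark the replicate number; the bar beside them is the subset mean ± SD, n = 3). Replicate 3 is the lowest array of every subset for Rpl27a (672 to 813) and the highest for Rpl22l1 (3909 to 4620), while Rpl12 and Rps6 show no such split.

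For some members the replicate number parted the arrays more than the subset did, which was noticed in the data and not planned. Rpl27a read 672 to 813 on the 4 arrays of replicate 3 and 1063 to 1765 on the other 8. Rpl22l1 was the reverse, with 3909 to 4620 on replicate 3 and 2076 to 3366 on the others. The 4 arrays of replicate 3 lay above the other 8 for 10 members (Rpl14, Rpl22l1, Rpl27, Rpl35, Rpl39l, Rps4x, Rps7, Rps19bp1, Rps20 and Rps25), against 10.9% of all probe sets, and below them for 3 (Rpl4, Rpl27a and Rplp0), against 10.4%. The 10 are 20% and the 3 are 6% of the members. The study names its 3 array repeats by codes that all 4 subsets share and that read like calendar dates, the last of them years after the other two. No source used here ties a code to a replicate number, and the part of such a gap in the split of replicate 3 was not tested. Each replicate number holds every subset once.

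**Figure D4:**
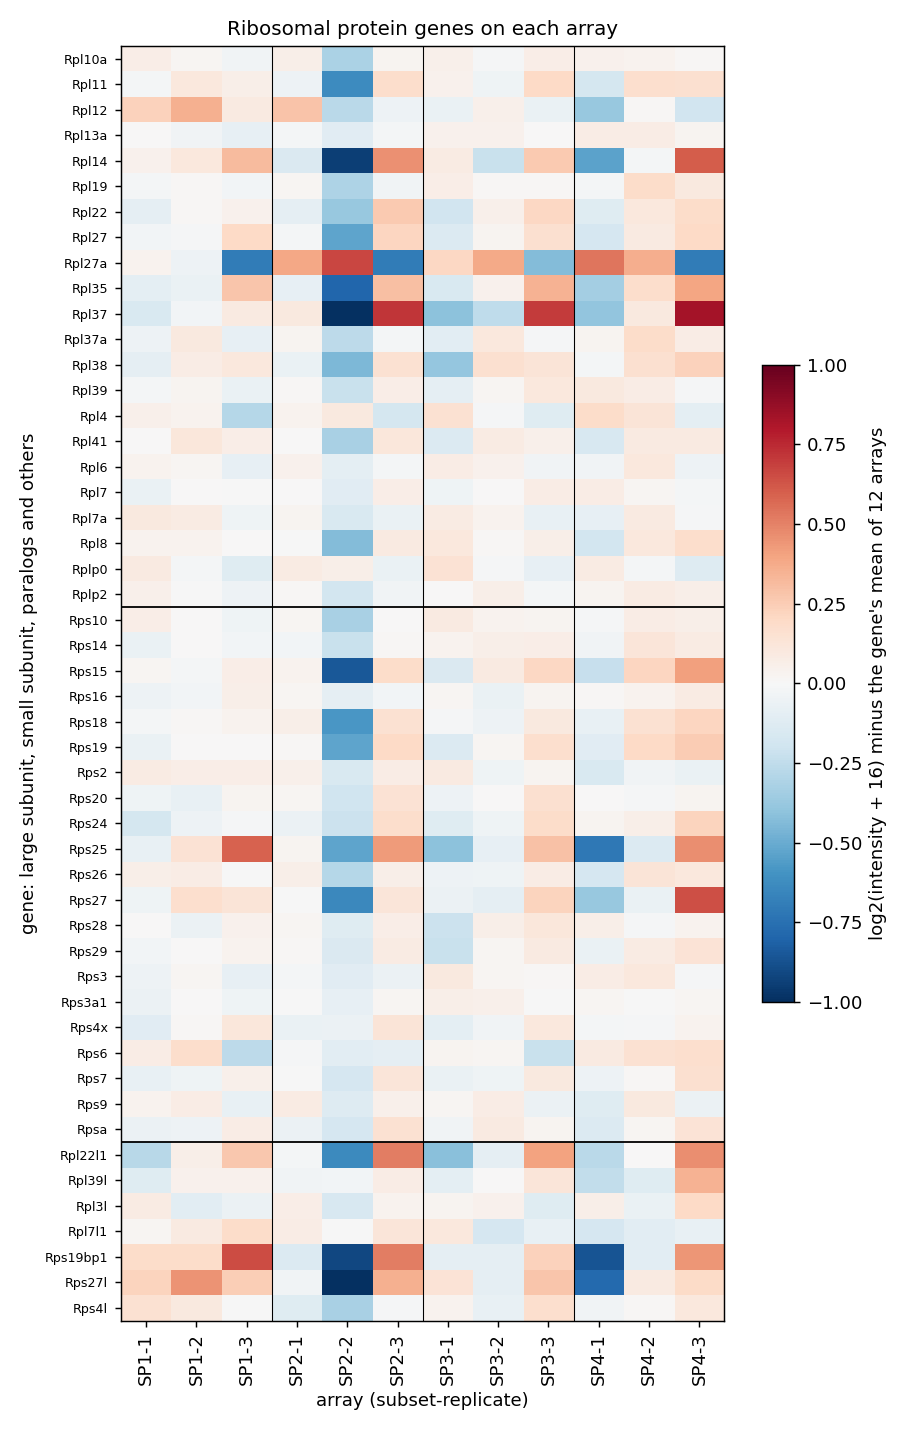
Deviation of each gene (rows) from its own mean over the 12 arrays (columns, named by subset and replicate number), in log2(intensity + 16); red is higher and blue lower, and the scale ends at 1 in each direction. Black lines part the subsets and, from top to bottom, large subunit, small subunit, and paralogs and others. SP2 replicate 2 is blue for 47 of 50 genes, and Rpl27a is blue on all 4 arrays of replicate 3.

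Readouts of 1 gene were compared with each other in the 24 members that had several probe sets. The widest gaps in the SP4 against SP1 difference were in Rps9 (-0.55 to 0.15), Rps20 (-0.46 to 0.07), Rps24 (-0.25 to 0.27) and Rpl41 (-0.55 to -0.05). The low end came in each case from the gene's dimmer probe set of the pair. Of all 106 probe sets, 0 passed in SP4 against SP1 without the block (5 at an unadjusted p under 0.05, beside 3518 of all 45037) and 3 with it, beside 5.16% of all probe sets. These were probe sets of Rps9, Rps20 and Rpl35, with mean intensities of 2.55%, 0.42% and 0.29% of those of the genes' representatives. The Rps9 one fell from 235 ± 13.1 to 156 ± 17.2 (SD, n = 3) between SP1 and SP4, by 0.55 on the log2 scale (limma adjusted p = 0.0203 with the block and 0.197 without), while the gene's representative differed by -0.04. They were named after their values were seen, and which transcripts these dim probe sets detect was not tested. A further 110 probe sets are shared between a ribosomal protein gene and other genes. In SP4 against SP1, 0 of them passed without the block and 1 with it. Their log2 differences ran from -0.99 to 0.59, with a median of 0.06.

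The rest of the translation machinery was described from lists of genes, each read in SP4 against SP1. Without the block, 0 genes of any of the following lists passed by limma, beside 1.08% of all probe sets. With the block, 5.16% of all probe sets were called in this comparison, which is the background for the counts with the block below. Fau, whose product is cleaved to the ribosomal protein eS30, is missed by the naming pattern and differed by 0.14 ± 0.15 (log2, SE). The 17 measured elongation factors and other genes with TOP mRNAs had a median of 0.04, with 11 above 0 and none at an unadjusted p under 0.05. With the block, 1 of the 17 rose, Vim, the intermediate filament vimentin, by 0.48 ± 0.12 (SE; limma adjusted p = 0.0362).

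Of the lists for initiation and for ribosome assembly, all 3 had a median below 0. The 27 initiation factors, which bring mRNA and ribosome together, had a median of -0.11 (6 above 0), the 14 subunits and factors of RNA polymerase I, which transcribes ribosomal RNA, -0.09 (4 above 0), and the 49 genes of ribosome biogenesis -0.14 (11 above 0, 2 at an unadjusted p under 0.05). Without SP4 replicate 1 the median of the initiation factors was -0.23 and that of the biogenesis genes -0.13. With the block 1 of the 49 fell, Pno1, an assembly factor of the small subunit, by 0.60 on the log2 scale (limma adjusted p = 0.0344). It read 642 ± 130 in SP1 and 419 ± 90.2 in SP4 (SD, n = 3).

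The mitochondrial ribosomal proteins, which form the separate ribosome of that organelle, had the lowest median. All 76 measured genes stood at a median of -0.26 in SP4 against SP1, with 4 above 0, 0 called with or without the block and 2 at an unadjusted p under 0.05. Their median deviation was -0.71 on SP2 replicate 2 and -0.59 on SP4 replicate 1, against -0.02 to 0.25 on the other 10 arrays. Without SP4 replicate 1 the median difference was -0.04, and without SP2 replicate 2 that of SP2 against SP1 went from -0.35 to -0.06. The low values therefore lay on the arrays on which several cytosolic members were also low.

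Among 21 regulators of ribosome production, 0 passed without the block, with 1 at an unadjusted p under 0.05. With the block 2 passed, 1 up and 1 down, beside 5.16% of all probe sets. The median of the 21 was -0.08, with 9 above 0 and 12 below. Myc, which drives ribosome biogenesis, rose by 0.81 ± 0.17 (SE; limma adjusted p = 0.0122 with the block, 0.938 without), from 186 ± 118 to 300.2 ± 126 (SD, n = 3). It read 242, 265 and 49.7 in SP1 and 359, 385 and 156 in SP4, so the groups overlapped, replicate 3 was the lowest array in both, and SP4 was higher in each same-numbered pair. Mxi1, a member of the same network that opposes Myc, fell by 0.57 on the log2 scale (adjusted p = 0.0217 with the block, 0.52 without). The 8 genes of the p53 response had a median of 0.18, with 5 above 0 and 3 below. Of them, 0 passed without the block (3 at an unadjusted p under 0.05) and 2 rose with it. These were Ccng1 by 0.82 ± 0.14 (limma adjusted p = 0.00475 with the block, 0.271 without) and Sesn1 by 0.49 ± 0.13 (0.0454 and 0.34). Rps27l, also a p53 target, had the opposite sign in the same comparison, at -0.47 ± 0.34 (SE without the block), and did not pass.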

How the data were processed

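The authors sorted 4 subsets, hybridised 3 Affymetrix Mouse Genome 430 2.0 arrays for each, and deposited linear probe set intensity values, background-corrected and normalized between arrays. The paper's methods name RMA and the submitters' processing notes name MAS5, with versions not given in the sources used here. The raw scans were not reprocessed. Genes were named by GEO's platform annotation.

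To each intensity 16 was added before log2. One mean per subset was fitted to 12 arrays with limma 3.58.1 (R 4.3.3; eBayes with a mean-variance trend), with Benjamini-Hochberg adjustment over 45037 probe sets and calls at an adjusted p under 0.05. The code was tested on simulated data. Intervals are 95%. Precision is limited by the 3 arrays of a subset, and p-values measure the spread between these preparations.

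Deviations from the subset means correlated at 0.279 to 0.883 between same-numbered arrays of different subsets over all probe sets, in 18 pairs, so the numbers were taken to pair the samples. Among members alone the range was -0.183 to 0.909.

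The members and lists were chosen with earlier results of these data known. Named genes were the 5 highest and 5 lowest in SP4 against SP1, the 3 highest and 3 lowest between neighbouring subsets, paralogs, genes of known special role, called genes of the other lists, and the 4 genes whose probe sets differed most. Promoter settings, the split by replicate 3 and the marker check of single arrays were chosen after seeing the data.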

Additional observations from a re-analysis of the deposited data

How the results depend on the processing

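The count of members called was 0 in all 6 comparisons under each of 24 alternatives: offsets of 1 and 64, a filter at a mean intensity of 64, quantile normalization, 75th percentile scaling, 2 other choices of probe set, the arrays of the compared subsets only, the replicate block, no mean-variance trend, leaving out each array, and 2 alternatives added after seeing the data (replicates 1 and 2 only, and the replicate block with quantile normalization). The replicate block changed no call of a member, and 0 were called with it. Of 144 recomputed medians, 141 moved by less than the SD between replicate pairs. That SD was 0.038 (SP3 against SP1) to 0.181 (SP4 against SP2) and larger than the median itself in each of the 6 comparisons. A median could therefore change sign and still count among the 141, so this count does not show that the medians are stable. The median of SP3 against SP1, 0.02, became -0.027 with replicates 1 and 2 only. Leaving out 1 array gave medians of -0.11 to 0.02 in SP2 against SP1, -0.03 to 0.12 in SP3 against SP2, -0.013 to 0.074 in SP4 against SP3, -0.033 to 0.028 in SP3 against SP1, -0.01 to 0.15 in SP4 against SP2 and 0.01 to 0.08 in SP4 against SP1. With replicates 1 and 2 only the SP4 against SP1 median was -0.00087. For single named genes, 31 of 620 recomputed differences changed sign and none was called. Bright members near the top of the scale and the 5 under 64 limit what can be seen.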
